A study of Nematostella vectensis with 33 samples.

Results

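Messenger RNA of the sea anemone Nematostella vectensis was examined for 201 genes whose transcripts were raised by 2'3'-cGAMP in embryos and lay lower in 2'3'-cGAMP-treated embryos that had received short hairpin RNAs (shRNAs) against NF-kB. They were chosen from the 21801 genes held by both embryo tables. In the STING experiment, the mean of log2(normalised count + 1) over all treated embryos had to exceed that over all untreated embryos by at least 1. In the NF-kB and STAT experiment, every NFkB shRNA library had to lie below every GFP shRNA library, the difference of means had to be -0.8 or lower, and every GFP shRNA value had to be at least 30. Of the 21801 genes, 3242 met the first condition, 1962 of these also met the minimum in the GFP shRNA libraries, 316 of those had no overlap between NFkB and GFP shRNA libraries, and 201 met every condition. The other 1761 raised genes that met the GFP shRNA minimum are called the other raised genes and serve for comparison.

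Cyclic dinucleotides are small second messengers, and 2'3'-cGAMP is the one that the animal enzyme cGAS makes from ATP and GTP. It binds the receptor STING, and in mammals STING signalling activates interferon regulatory factors and NF-kB. NF-kB factors are Rel-family transcription factors that are held in the cytoplasm by inhibitors until a signal releases them, and they are known as regulators of immune and developmental genes in animals from cnidarians to vertebrates. STAT factors are a separate family of signal-activated transcription factors, best known from cytokine receptors.

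The study held 33 libraries in 16 groups, in 3 tables that the authors normalised separately. Whole polyps were untreated or kept for 24 h with 500 µM of 2'3'-cGAMP, 3'3'-cGAMP, c-di-AMP or c-di-GMP, with 2 libraries per group. In the STING experiment, whole embryos microinjected with an shRNA against GFP (the control) or with 1 of 2 shRNAs against STING were untreated or given 100 µM 2'3'-cGAMP for 4 h, again with 2 libraries per group. In the NF-kB and STAT experiment, embryos injected with an shRNA against GFP (3 libraries), with 1 of 2 shRNAs against NF-kB or with 1 of 2 against STAT (2 libraries each) were all given 100 µM 2'3'-cGAMP for 4 h. That experiment used here has no untreated embryos, so it compares levels in treated embryos and not the size of the response. In whole animals, fewer cells of a type and less RNA per cell cannot be told apart.

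The identifiers in the tables are NCBI Gene numbers. The reference table paired 153 of the 201 genes with a symbol, each a placeholder with the prefix LOC, and 48 with none, so no gene role is given for any member. For the same reason the lists of pathway genes and of cell type markers matched 0 genes, the shRNA targets could not be located to check their depletion, and the whole-animal source was not checked against markers. No sequence of the members was read, and the search for kappaB-like motifs in promoters was not run.

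Estimated depth was 9.365 to 17.42 M (mega) reads per polyp library and 16.68 to 30.64 M per library of the STING experiment. It was 14.43 to 25.59 M per library where NF-kB and STAT were targeted. Among low values, 75.16 to 92.2% lay close to whole reads in the polyp libraries, against 7.184 to 37.49% in the embryo libraries. The embryo depths are therefore rough. Some libraries stood apart. In the STING experiment, 21.63% of genes were at 0 in GFP shRNA untreated replicate 1 and 14.40% in GFP shRNA 2'3'-cGAMP replicate 4, against 3.994 to 11.33% in the other 10 libraries. The first of these also listed 61 of the 201 members at 0, while the other untreated embryo libraries listed 0 to 20. Where NF-kB and STAT were targeted, NFkB 2 shRNA replicate 1 had 13.96% of genes at 0 and listed 12 members at 0. Deposited totals of the polyp libraries lay between 9.556 and 10.55 M, except for 22.34 and 22.36 M with 2'3'-cGAMP.

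The 2 differences that chose the members are given as a description and without a test. The embryo change with 2'3'-cGAMP had a median of 2.39 on the log2 scale and ran from 1.005 to 7.576, against a median of 1.66 among the other raised genes. It was at least 2 for 120 members and at least 4 for 43. The NFkB shRNA difference from GFP shRNA had a median of -1.435 on the log2 scale and ran from -4.517 to -0.8076, whereas the median over all genes in both embryo tables was -0.05. It was -1 or lower for 165 members, -2 or lower for 45 and -3 or lower for 10. As a share, the NFkB shRNA mean was 7.79 to 57.6% of the GFP shRNA mean, with a median of 38.6%. In the fits over all genes, 10.1% of genes were called higher in treated embryos and 1.57% were called lower with NFkB shRNAs. The corresponding counts of members, 158 and 143, follow from the choice and are not read further.

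The thresholds cut through a continuous range of values. LOC5508998, LOC5504956 and LOC5518669 lay just inside the NFkB limit at -0.8255, -0.8216 and -0.8076 on the log2 scale. LOC5518949, LOC5512739 and LOC5522117 met the other conditions and lay just outside it at -0.798, -0.7951 and -0.7901. For the embryo change, LOC5511758, LOC5510208 and LOC5508328 were just inside at 1.005, 1.008 and 1.026, and LOC5517335, LOC5512342 and LOC5517036 were just outside at 0.9992, 0.9969 and 0.9921. Leaving GFP shRNA untreated replicate 1 and 2'3'-cGAMP replicate 4 out of the rule gave 191 genes, 183 of them among the 201. Without NFkB 2 shRNA replicate 1, 188 of the 201 still had a difference of -0.8 or lower, and the median over all 201 was -1.35.

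The rule required each hairpin's libraries to lie below every GFP shRNA library, so a lower level with both is no finding, and the values per hairpin are given as a description. The median difference from GFP shRNA was -1.454 with NFkB 1 shRNA and -1.338 with NFkB 2 shRNA. A difference of -0.8 or lower was found for 190 members with the first hairpin, for 178 with the second and for 167 with both. As a sum, the members held 4.688, 5.833 and 5.677% of the deposited total in the 3 GFP shRNA libraries. They held 2.329 and 1.885% with NFkB 1 shRNA and 2.215 and 2.965% with NFkB 2 shRNA, a gap that the choice of members fixes. With STAT 1 shRNA they held 3.596 and 4.116%, between the NFkB and GFP shRNA libraries, and with STAT 2 shRNA 4.707 and 5.25%, within the range of the GFP shRNA libraries.

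**Figure D1:**
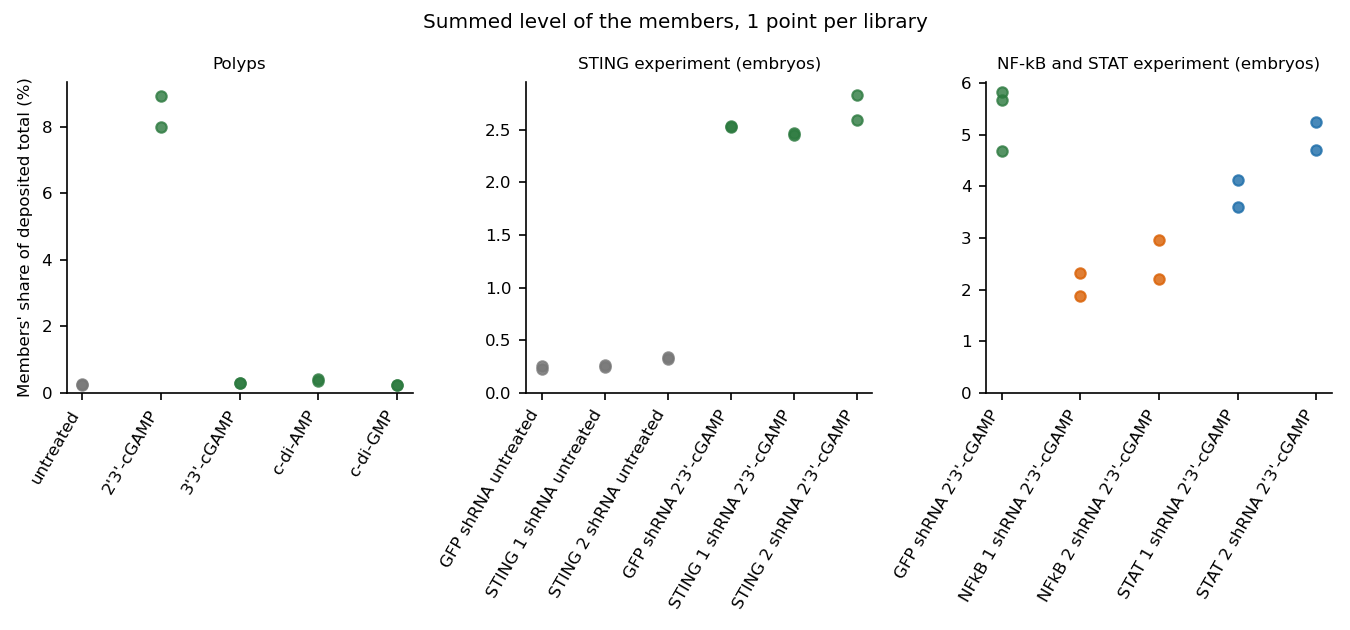
Share of each library's deposited total (%, vertical axis from 0) held by the members, with 1 point per library, for polyps (left), the STING experiment (middle) and the NF-kB and STAT experiment (right). In the right panel the NFkB shRNA libraries lie between 1.885 and 2.965%, under the GFP shRNA libraries at 4.688 to 5.833%, and in the left panel the polyps given 2'3'-cGAMP stand at 7.993 and 8.917% while every other polyp library is at 0.4246% or less.

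The 2 NF-kB hairpins were also compared with each other. The rule used all 4 libraries and left out genes that were low with 1 hairpin alone, so this comparison does not show that the hairpins act alike. Limma called 0 of the 201 members between them, beside 0% of all tested genes, and 40 members had an unadjusted p below 0.05 (2329 of all 20058 tested genes did). The median difference, NFkB 2 minus NFkB 1 shRNA, was 0.11 on the log2 scale, and the median half-width of the members' 95% intervals was 0.76. Those intervals are not adjusted for the number of genes, so per-gene differences above 0.76 could also have been missed. The members' differences ran from -4.32 to 1.64, and none was called. Without NFkB 2 shRNA replicate 2, which leaves replicate 1 with its many zeros as the sole library of that hairpin, 11 members were called, all lower with NFkB 2 shRNA. In that fit 0.96% of all tested genes were called lower and 0.015% higher, and the lone library was assumed to vary like those of the other groups. The part of the zeros in that count was not tested.

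The 10 members with the largest differences with NFkB shRNAs included genes of low level. Gene 5506715 (NCBI Gene) had 48.2, 92.8 and 81.7 normalised counts in the GFP shRNA libraries, 4.00 and 0 with NFkB 1 shRNA, and 0 and 19.1 with NFkB 2 shRNA, a difference of -4.52 on the log2 scale. LOC116616257 had 42.6, 82.4 and 68.5 in the GFP shRNA libraries, 3.98 and 14.01 with NFkB 1 shRNA, and 0 and 2.60 with NFkB 2 shRNA. Values this low move by several log2 units with a few reads, and of the 10 members with the largest differences, 6 had at least 1 NFkB shRNA library at 0. These log2 differences depend on the pseudocount of 1.

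Other members of the same ranking were abundant. LOC5514999 had 4874, 8074 and 6304 normalised counts with GFP shRNA, 475 and 524 with NFkB 1 shRNA, and 187 and 1325 with NFkB 2 shRNA. Its mean with NFkB shRNAs was 9.8% of its GFP shRNA mean, a difference of -3.65 on the log2 scale. LOC116604070 had 3251, 5881 and 5870 with GFP shRNA, 555 and 305 with NFkB 1 shRNA and 499 and 1064 with NFkB 2 shRNA, a difference of -3.14. In both genes the highest NFkB shRNA library stood well under the lowest GFP shRNA library.

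LOC5515806 had the highest mean of all members in the GFP shRNA libraries, at 102090, 140220 and 119610 normalised counts. With NFkB 1 shRNA it had 21990 and 20247, and with NFkB 2 shRNA 12326 and 26699, a difference of -2.61 on the log2 scale. The next 4 by level, LOC5503216, LOC5512707, LOC5519403 and LOC5517267, differed less, by -1.03, -1.02, -0.94 and -0.95. In LOC5512707, the GFP shRNA libraries had 89603, 132040 and 127590 and the NFkB shRNA libraries 56191, 39626, 56578 and 81217. Among the 15 members with a GFP shRNA mean of at least 10000 the median NFkB difference was -1.06, against -1.90 among the 28 with a mean under 100. Between these it was -1.42 for the 97 with a mean of 100 to 1000 and -1.44 for the 61 with 1000 to 10000. Over all 201 members, Spearman's rho between the NFkB difference and the embryo change was 0.00685, given as a description across genes of the same libraries, which are not independent.

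**Figure D2:**
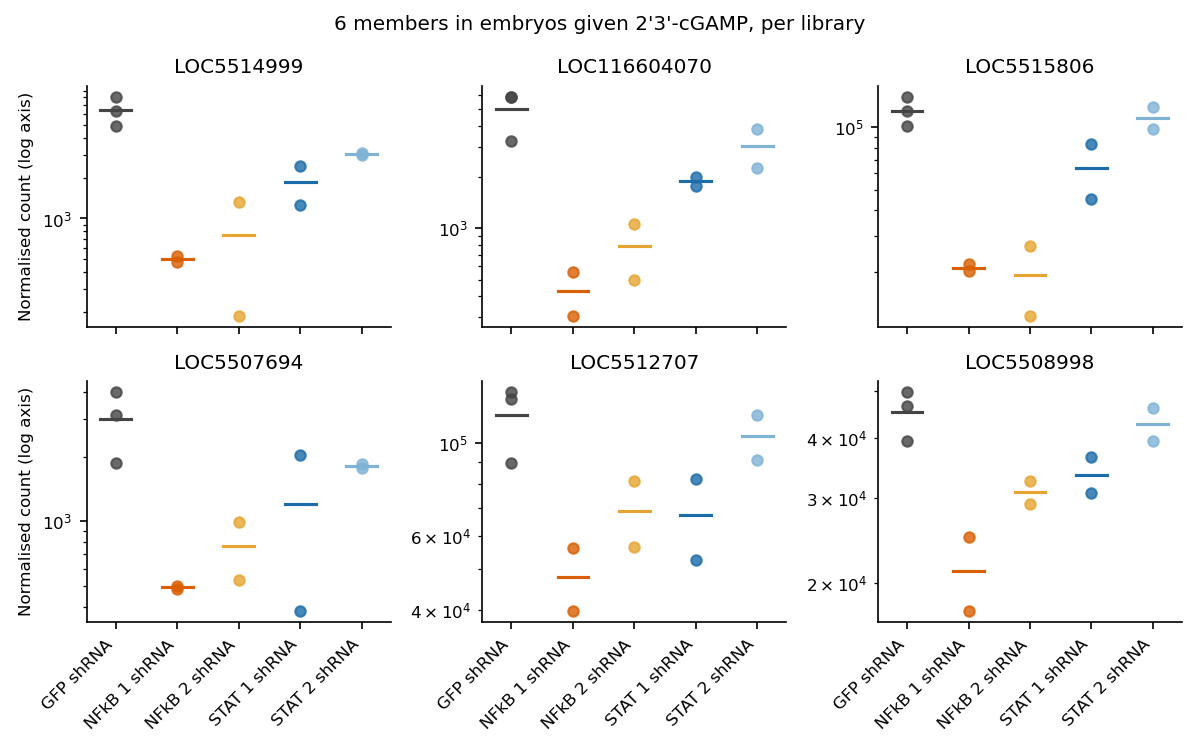
Normalised counts (log axis) of 6 members in every library of the NF-kB and STAT experiment, with 1 point per library and a bar at the group mean, for the 3 GFP shRNA libraries and 2 libraries each of NFkB 1, NFkB 2, STAT 1 and STAT 2 shRNA. In all 6 the NFkB shRNA points lie under the GFP shRNA points, as the rule requires, from a difference of -3.65 on the log2 scale in LOC5514999 to -0.83 in LOC5508998, while the STAT shRNA points overlap the GFP shRNA points in each gene but LOC5514999.

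The STAT shRNA libraries were not part of the rule, but they are compared with the same GFP shRNA libraries, which the rule required to be high, so their values are given without a test. The median difference, STAT minus GFP shRNA, was -0.2526 on the log2 scale, against 0.00245 over all genes, and 167 of the 201 members lay below 0. Among the other raised genes, which met the same GFP shRNA minimum, the median was -0.086 and 1079 of 1761 lay below 0. Of all 20058 tested genes, 9961 lay below 0. In 181 members the STAT and GFP shRNA libraries overlapped. Every STAT shRNA library lay below every GFP shRNA library in 19 members, which is 9.45% of them beside 3.12% of all genes, and above in 1 member, beside 2.74% of all genes.

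The members furthest below GFP shRNA with STAT shRNAs and without overlap were LOC116615419, LOC5520892, LOC5514999 and LOC5522079. LOC5520892 had 46.0, 105.3 and 110.3 normalised counts with GFP shRNA, 7.71, 12.002, 40.7 and 43.7 with the STAT shRNAs, and 16.1, 7.09, 19.7 and 19.6 with the NFkB shRNAs. LOC5514999 had 1269 and 2481 with STAT 1 shRNA and 3102 and 2976 with STAT 2 shRNA. These lie under its lowest GFP shRNA value of 4874 and above its highest NFkB shRNA value of 1325, a difference from GFP shRNA of -1.44 on the log2 scale with STAT shRNAs and -3.65 with NFkB shRNAs.

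LOC116603015 was the member with all STAT shRNA libraries above all GFP shRNA libraries. It had 352.1, 354.5 and 164.1 normalised counts with GFP shRNA, 369.5, 361.6, 440.2 and 397 with STAT shRNAs, and 160.7, 162.8, 136.7 and 151.4 with NFkB shRNAs. Its GFP shRNA replicate 3 was close to the NFkB shRNA libraries, so its place among the members rests on a narrow gap.

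In the STING experiment the members' summed share of the deposited total lay between 0.228 and 0.341% in the 6 untreated libraries and between 2.45 and 2.83% in the 6 treated libraries, a gap that the choice of members fixes. The rule used the mean over all shRNAs and not the contrast between them, but it used the same libraries. A library with many zeros could move both, so the contrasts below are not independent of the choice. With 2'3'-cGAMP, limma called 0 of the 201 members between STING and GFP shRNAs, beside 0% of all genes, and 7 had an unadjusted p below 0.05 (1616 of all 20879 tested genes did). The median difference, STING minus GFP shRNA, was 0.08 on the log2 scale and -0.02 with equal totals, and the median half-width of the 95% interval was 1.20. Because the 95% intervals are not adjusted for the number of genes, per-gene differences above 1.20 could also have been missed.

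In untreated embryos limma also called 0 members between STING and GFP shRNAs, beside 0.00479% of all genes, while 44 had an unadjusted p below 0.05 (1374 of all tested genes did). The median difference was 0.367, with 140 members above 0. The difference in response, STING minus GFP shRNA, gave 0 called members beside 0% of all genes, 13 with an unadjusted p below 0.05 (311 of all tested genes) and a median of -0.327, with a median half-width of 1.70. Among the other raised genes the median was 0.423 in untreated embryos and -0.309 for the response. Both medians of the members moved with the libraries that held most zeros. Without GFP shRNA untreated replicate 1 and 2'3'-cGAMP replicate 4, the median difference was -0.00866 in treated embryos and -0.02557 in untreated embryos, and that of the response was 0.03119, with 0 members called in each. Without GFP shRNA untreated replicate 2, which leaves replicate 1 as the sole untreated control, 54 members were called in untreated embryos, 53 of them higher with STING shRNAs, and 30 had a smaller response. In those fits 7.03% of all tested genes were called higher untreated and 3.15% had a smaller response, and the lone control was assumed to vary like the other groups.

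LOC116604070 is an example of that dependence. Untreated embryos had 0 and 22.4 normalised counts with GFP shRNA, 28.7 and 26.9 with STING 1 shRNA and 27.2 and 48.6 with STING 2 shRNA. With 2'3'-cGAMP the values were 946 and 1128 with GFP shRNA, 455 and 735 with STING 1 shRNA, and 666 and 1007 with STING 2 shRNA. Its difference in response was -3.35 (95% interval -6.34 to -0.35) with an adjusted p of 1 in limma. The single value of 0 in GFP shRNA untreated replicate 1 stands apart from the other 5 untreated libraries, and the other replicate of that group lay near the STING shRNA libraries.

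Polyps were not used to choose the members, so their response was tested. The polyp table held 191 of the 201 members, and 185 of these passed the filter on low values (at least 10 in at least 2 libraries). Of those 185, 23 passed only through the 2'3'-cGAMP libraries and had to be high there, 6 more were in the table and did not pass, and 10 were not in it. In polyps given 2'3'-cGAMP, limma called 160 of the 185 higher than in untreated polyps and 0 lower at an adjusted p below 0.05, and 25 were not called. Over all tested genes 28.5% were called higher, and among the other raised genes 1304 of 1648 were higher and 39 lower.

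The median change was 3.76 on the log2 scale for the members that passed, 2.53 for the other raised genes and -0.10 for all tested genes. Counting only the 162 members that pass the filter without the 2'3'-cGAMP libraries, 137 were higher, with a median change of 3.30. The values for the other raised genes and for all tested genes were not restricted in this way. The summed share of the deposited total was 0.2283 and 0.2592% in untreated polyps and 8.917 and 7.993% with 2'3'-cGAMP. Of the 160 called members, 61 rose by 5 or more on the log2 scale, 70 by 2 to 5 and 29 by less than 2. These classes include members that passed the filter only through the 2'3'-cGAMP libraries and so had to be high there. They are a description. With each library scaled to the same total, 127 members were called higher and 10 lower, beside 11.3% and 60.7% of all tested genes, while the median over all tested genes moved to -1.226 and that over members to 2.63. Since the labels do not say that libraries came from separate animals or cultures, the spread behind these p-values may be technical.

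LOC5514999 had 1.70 and 3.54 normalised counts in untreated polyps and 5915 and 6845 with 2'3'-cGAMP. With the other 3 compounds it had 0.873 to 3.72, a few reads at most. It passed the filter only through the 2'3'-cGAMP libraries and so had to be high there, and its fitted change of 10.83 on the log2 scale, the highest among the members, depends on the pseudocount and is given without a test. Gene 116615652 (NCBI Gene), the member with the largest embryo change, at 7.58, rose in polyps from 2.55 and 6.20 to 9031 and 6775, a change of 10.60 (adjusted p = 2.9e-08).

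Abundant members reached very high levels. LOC5512707 had 1025 and 1211 normalised counts in untreated polyps and 586250 and 491820 with 2'3'-cGAMP, a change of 8.91 (95% interval 8.47 to 9.35). LOC5508998 rose from 334 and 300 to 248990 and 171180, by 9.35 (95% interval 8.89 to 9.80). LOC5515806 rose from 519 and 404 to 125200 and 128880, by 8.11 (95% interval 7.54 to 8.68). In none of these did the treated libraries come near the untreated ones. All 15 members with a GFP shRNA mean of at least 10000 were called higher in polyps, with a median change of 7.70.

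**Figure D3:**
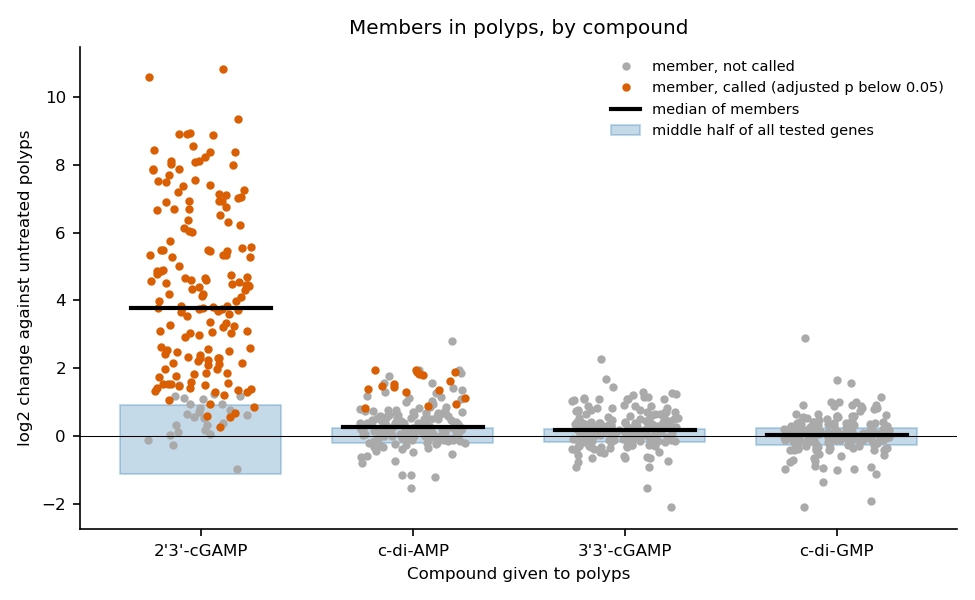
Log2 change of each tested member against untreated polyps (vertical axis) for the 4 compounds, with 1 point per member, orange where the change was called at an adjusted p below 0.05, a black bar at the members' median and a blue band from the first to the third quartile of all tested genes. With 2'3'-cGAMP 160 of 185 members are called and the median is 3.76, with c-di-AMP 18 are called and the median is 0.26, and with 3'3'-cGAMP and c-di-GMP 0 are called. The 185 include 23 members that passed the filter only through the 2'3'-cGAMP libraries. Of the 162 that pass without those libraries, 137 are called higher with 2'3'-cGAMP.

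Across members, the size of the polyp change ranked with that of the embryo change (Spearman's rho 0.65, n = 191). The same relation among the other raised genes had a rho of 0.544 (n = 1733). Both are descriptions across genes measured in the same libraries, and both share the levels that set how large a log2 change can be seen. Between the NFkB shRNA difference and the polyp change rho was -0.00831 (n = 191).

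Among the 25 tested members not called in polyps, 8 had been raised by 2 or more on the log2 scale in embryos. LOC5511201 had the widest gap. In treated embryos of the STING experiment it had 235 and 718 normalised counts with GFP shRNA, 388 and 636 with STING 1 shRNA and 439 and 713 with STING 2 shRNA, and 0 to 56.5 in the untreated embryos. In polyps it had 76.4 and 92.0 untreated and 88.2 and 83.5 with 2'3'-cGAMP, a change of 0.03 (95% interval -0.42 to 0.48, adjusted p = 0.902), whose sign turns with equal totals (-1.106) and when 1 library is left out. An increase of more than 0.48 lay outside that interval, whereas the embryo change was 5.27. The size of that embryo change depends on the pseudocount, because untreated embryo values reached 0. Doses and times differed between polyps and embryos, and the tables were normalised separately, so the difference between them was not tested.

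LOC116610723 is another such member. It had 1156 and 1146 normalised counts in untreated polyps and 1247 and 1238 with 2'3'-cGAMP, a change of 0.11 (95% interval -0.16 to 0.39, adjusted p = 0.463) that became -1.043 with equal totals. LOC5498615 had 111 and 12.4 in untreated polyps and 54.8 and 28.4 with 2'3'-cGAMP, a spread within the untreated group that leaves its change of 0.06 undetermined (95% interval -3.77 to 3.90), and its sign turns with equal totals (-1.047). LOC5502302 had 210 and 201 untreated and 169 and 211 with 2'3'-cGAMP (change -0.12, 95% interval -0.55 to 0.31), with a sign that turns without 2'3'-cGAMP replicate 1 (0.04). LOC5522079 had the lowest polyp change of all tested members, at -0.97 with an adjusted p of 0.186.

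**Figure D4:**
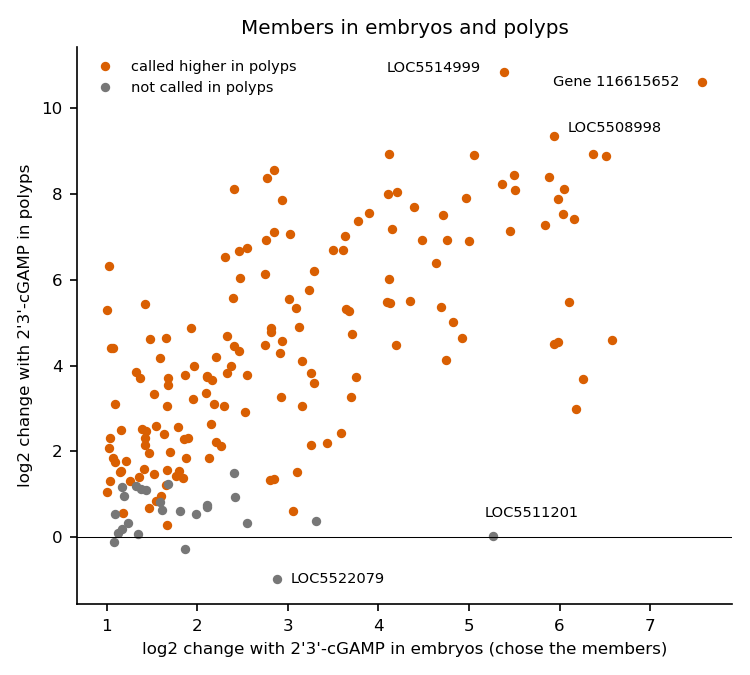
Log2 change with 2'3'-cGAMP in embryos, which chose the members (horizontal axis), against that in polyps (vertical axis), with 1 point per tested member, orange where called higher in polyps and grey where not called. LOC5514999 and Gene 116615652 stand at the top at 10.83 and 10.60, and LOC5511201 lies at 0.03 in polyps with an embryo change of 5.27.

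The other cyclic dinucleotides were given to polyps at the same dose and for the same time. With c-di-AMP, limma called 18 of the 185 members higher and 0 lower, beside 0.773% of all tested genes called higher, and 118 of 1648 other raised genes were called higher. The median change of the members was 0.26 on the log2 scale, 144 of 185 lay above 0 and 50 had an unadjusted p below 0.05 (1890 of all 18511 tested genes did). The count depended on the libraries: it was 7 without untreated replicate 1, 7 without c-di-AMP replicate 1, 11 without untreated replicate 2 and 13 without c-di-AMP replicate 2, with 0.173 to 0.532% of all tested genes called higher in those fits. The members' summed share of the total was 0.4246 and 0.3529% with c-di-AMP, above both untreated libraries.

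The 18 were mostly abundant members. A GFP shRNA mean of at least 10000 was found for 8 of them (of 15 such members), one of 1000 to 10000 for 9 (of 61), one of 100 to 1000 for 1 (of 90 tested) and one under 100 for 0 (of 19 tested). Their changes with c-di-AMP ran from 0.834 to 1.96 on the log2 scale, and those with 2'3'-cGAMP from 5.28 to 9.35. LOC5508998 had 334 and 300 normalised counts in untreated polyps and 1257 and 1123 with c-di-AMP, a change of 1.91 (95% interval 1.46 to 2.36, adjusted p = 0.00206). LOC5518669 had 98.5 and 92.9 untreated and 432 and 323 with c-di-AMP, a change of 1.96 (adjusted p = 0.00122).

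LOC116620239 rose from 34.0 and 35.4 to 158 and 120 with c-di-AMP, by 1.96 (adjusted p = 0.00247). LOC5509270 rose from 918 and 991 to 4335 and 2850, by 1.88 (adjusted p = 0.00311), and LOC5501982 from 17.0 and 32.7 to 81.6 and 98.7, also by 1.88 (adjusted p = 0.0149). In all of these the c-di-AMP and untreated libraries did not overlap. LOC5507694, LOC116613976 and LOC5512568 were called as well, with changes of 1.83, 1.80 and 1.63. By contrast, LOC5515806, abundant and with a 2'3'-cGAMP change of 8.11, had 595 and 444 with c-di-AMP beside 519 and 404 untreated (change 0.17, 95% interval -0.41 to 0.74), so its libraries overlapped.

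2'3'-cGAMP and 3'3'-cGAMP are isomers that differ in 1 of the linkages between their nucleotides. With 3'3'-cGAMP, limma called 0 of the 185 members against untreated polyps, beside 0.054% of all genes called higher, and 30 had an unadjusted p below 0.05 (800 of all tested genes did). The median change was 0.17 on the log2 scale, with 123 members above 0. Compared directly, 156 of the 185 members were higher with 2'3'-cGAMP than with 3'3'-cGAMP and 0 lower, beside 28.6% of all genes called higher. The median difference was 3.65. The 185 include 23 members that passed the filter only through the 2'3'-cGAMP libraries and so had to be high there. Among the 162 that pass without those libraries, 133 were higher and 0 lower, with a median difference of 3.04. The share over all genes was not restricted in this way. This direct comparison shares its 2'3'-cGAMP libraries with the comparison of 2'3'-cGAMP against untreated polyps, and every comparison with untreated polyps shares the untreated libraries.

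In the 18 members called with c-di-AMP, the 3'3'-cGAMP change was above 0 in all 18, from 0.276 to 1.30, though none was called. LOC5508998 had 858 and 582 normalised counts with 3'3'-cGAMP, above both untreated libraries at 334 and 300 and under both c-di-AMP libraries, a change of 1.16 (95% interval 0.71 to 1.61, adjusted p = 0.182). LOC5517267 had 924 and 1000 with 3'3'-cGAMP beside 595 and 560 untreated, a change of 0.73 (95% interval 0.48 to 0.99, adjusted p = 0.0898). All of these changes are measured against the same 2 untreated libraries.

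With c-di-GMP, limma called 0 of the 185 members, beside 0% of all genes, and 18 members had an unadjusted p below 0.05 (1877 of all tested genes did). The median change was 0.04 on the log2 scale, and 100 members lay above 0 and 85 below. Of the 18 members called with c-di-AMP, 7 lay above 0 with c-di-GMP, and their changes ran from -0.324 to 0.381. LOC5508998 had 421 and 383 normalised counts with c-di-GMP (change 0.34, 95% interval -0.11 to 0.79). LOC5515806 had 190 and 228 beside 519 and 404 untreated, without overlap, and was not called (change -1.13, adjusted p = 0.337). The median half-width of the members' 95% intervals in polyps was 0.68. These intervals are not adjusted for the number of genes, so changes above 0.68 could also have been missed. With c-di-GMP the members' changes ran from -2.10 to 2.90, and none was called.

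Where the members lie was read from the reference table, as the order of protein-coding genes along the chromosomes. Of 152 members that could be placed, 10 (6.58%) had another member as direct neighbour, in 5 pairs. Among the other raised genes 34 of 1232 (2.76%) were next to a member, and among all placed genes of both embryo tables that are no members 248 of 16120 (1.54%). The pairs were LOC5509442 and LOC5509430, LOC5501839 and LOC116609251, LOC116603455 and LOC5519900, LOC5518990 and LOC116602286, and LOC5511857 and LOC5511856. Whether neighbours share reads through similar sequences was not tested.

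LOC116603455 and LOC5519900 both responded strongly. LOC116603455 had 6038, 8476 and 8151 normalised counts with GFP shRNA and 3701, 1713, 2388 and 4713 with NFkB shRNAs, and LOC5519900 had 2784, 3964 and 3935 and then 1178, 753, 915 and 1617. In polyps they rose by 8.89 and 8.93 with 2'3'-cGAMP. The size of the second rise is less certain, since LOC5519900 varied widely in the polyp fit. Its 3'3'-cGAMP change there was 1.08 (95% interval -1.23 to 3.40). The pair of LOC5518990 and LOC116602286 differed between its genes. LOC116602286 had 387.7, 493.2 and 559.5 with GFP shRNA, 97.9 and 90.1 with NFkB 1 shRNA and 24.4 and 54.4 with NFkB 2 shRNA, and in polyps it rose from 17.0 and 14.2 to 4437 and 4776. LOC5518990 had 160, 125 and 63.2 with GFP shRNA and 43.4, 48.3, 28.6 and 60.8 with NFkB shRNAs, and its polyp values of 50.1 and 28.4 with 2'3'-cGAMP beside 19.5 and 24.8 untreated gave a change of 0.75 that was not called (adjusted p = 0.213).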

How the data were processed

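Poly(A) RNA was sequenced from whole polyps and whole embryos. The authors deposited 3 tables of normalised counts per gene, read here as signal values that are not whole and never negative. FastQC 0.11.9, kallisto 0.46.1 and DESeq2 are named without a role, per the submitters' processing notes, and the transcriptome build is not given in the sources used here. Dividing by the value of 1 read did not return whole reads for most embryo values, so no test for raw counts was run, and depth is an estimate. Genes with at least 10 in at least 2 libraries were tested on log2(deposited value + 1) with limma 3.58.1 in R 4.3.3, all groups of a table in 1 fit, with a trend on mean level. Two-sided p-values received Benjamini-Hochberg adjustment over all tested genes of the table, and genes were called at an adjusted p below 0.05. The procedure was run on simulated data with the same normal spread in every library and with changes only in genes with a mean of at least 50. No simulated library was given more zeros than the rest, so the simulation does not cover such libraries. The members and lists were chosen with earlier results of these data known. Genes named are those with the largest NFkB differences (10), the largest (6) and smallest (4) polyp changes, the highest GFP shRNA means (5), the largest c-di-AMP changes among those called (8), those beside the thresholds, neighbouring members (8), and those furthest below (4) or above (1) GFP shRNA with STAT shRNAs without overlap. LOC5517267 with 3'3'-cGAMP, LOC5515806 with other compounds and the pair LOC5511857 and LOC5511856 were singled out after their values were seen. Alternatives were the pseudocount (0.5 and 5), the filter (none, or a mean of at least 50), TMM factors, equal library totals, a replicate block, a fit of the compared groups alone, and each library left out.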

Additional observations from a re-analysis of the deposited data

How the results depend on the processing

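Of the alternatives run for the counts, 119 stayed within 1.5 times the count reported and 9 did not. A reported count of 0 was taken as unchanged only where it remained 0. This concerns 3'3'-cGAMP and c-di-GMP against untreated, the STING shRNA contrasts and the NF-kB hairpins. The tally therefore says little about the counts above 0. The rule found 207 genes with a pseudocount of 0.5, 186 with 5, 206 with TMM factors and 180 with equal totals. Alternatives added after seeing the data found 216 with GFP shRNA libraries alone, 191 without the 2 libraries of the STING experiment with most zeros and 226 without NFkB 2 shRNA replicate 1. Leaving out each library in turn gave 134 to 150 members called with 2'3'-cGAMP, 132 to 148 against 3'3'-cGAMP, 7 to 13 with c-di-AMP, 0 to 1 with 3'3'-cGAMP and 0 with c-di-GMP. It gave 0 for STING against GFP shRNA in 2'3'-cGAMP, 0 to 54 untreated, 0 to 30 for the difference in response and 0 to 11 between the NF-kB hairpins. Each of these fits leaves 1 library in a group, and the polyp fits differ in how many members were tested. With 2'3'-cGAMP against untreated, 162 members lay above 0 and 4 below when either 2'3'-cGAMP library was left out. Without an untreated library these were 181 and 4 or 180 and 5. The members' median ran from 3.255 to 3.813 there, and that of all tested genes from -0.107 to -0.0774. Against 3'3'-cGAMP the medians ran from 3.205 to 3.497 and from -0.0992 to -0.0760. The compared groups alone gave 1 member with c-di-GMP, called lower, beside 0.533% of all tested genes called lower and 0.133% called higher.

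Libraries of the same replicate number did not deviate together throughout, so the numbers were not taken as pairs. Polyp correlations ran from -0.301 to 0.176 (1 of 10 over 0.1) and those with NF-kB and STAT shRNAs from -0.0775 to 0.327 (4 of 10). In the STING experiment all were above 0, from 0.0134 to 0.471, with a median of 0.113 and 6 of 10 over 0.1. Deviation shared by replicate number cannot be set aside there, and a block was fitted for the untreated contrast alone. With the replicate number as a block, 159 members were called with 2'3'-cGAMP, beside 28.3% of all tested genes called higher and 29.7% lower. Against 3'3'-cGAMP 156 were called, beside 28.3% higher and 29.2% lower. With c-di-AMP 18 were called, beside 0.708% higher and 0.0216% lower, and with 3'3'-cGAMP 1, beside 0.0432% higher and 0% lower. With c-di-GMP, untreated with STING shRNAs and between the NF-kB hairpins, 0 members were called, beside 0% of all tested genes. No paired analysis was possible because the GFP shRNA libraries given 2'3'-cGAMP in the STING experiment are numbered 4 and 5, for that contrast and for the difference in response.

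Among named members, the polyp change with 2'3'-cGAMP changed sign 12 times. With equal totals it became -0.31 in LOC5518554, -0.14 in LOC116618478, -0.52 in LOC116615419, -1.11 in LOC5511201, -1.05 in LOC5498615 and -1.04 in LOC116610723. LOC5498615 was at -0.0072 with a pseudocount of 5. With each library left out in turn, the change ran from -1.47 to 1.60 in LOC5498615, from -0.10 to 0.16 in LOC5511201 and from -0.28 to 0.036 in LOC5502302. The cause of these changes was not tested.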
